A study of Rattus norvegicus with 12 samples.

Results

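Genes of insulin and insulin-like growth factor (IGF) reception were followed across the free walls of both ventricles of newborn rats. All 10 symbols looked for, Igf1, Igf2, Igfbp3, Igfbp5, Insr, Igf1r, Igf2r, Irs1, Irs2 and Grb10, were found, each as 1 row, among the 32545 genes of the deposited expression table. SD (Sprague–Dawley) rats had fistula surgery or a sham operation on postnatal day 1 and were sampled on postnatal day 7. The fistula, a needle puncture from the abdominal aorta into the inferior vena cava, returns arterial blood to the right heart and imposes volume overload (VO) on both ventricles. RNA-seq of the left (LV) and right (RV) free walls gave 12 libraries, 3 for each ventricle of sham and of VO rats (sham LV, VO LV, sham RV, VO RV). Hypoplastic left heart was the disease behind the study, and its authors grant that the fistula is an imperfect copy, partly nearer to a left-to-right shunt. The labels do not say whether an LV and an RV library came from 1 heart or whether hearts were pooled.

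Insulin and IGF1 act on related tyrosine kinase receptors, INSR and IGF1R. The activated receptors phosphorylate the docking proteins IRS1 and IRS2, which recruit PI3-kinase and lead to Akt, glucose uptake, glycogen and protein synthesis. In cardiac muscle this route supports growth and the use of glucose, and IRS2 is a known transcriptional target of FOXO factors, which Akt holds out of the nucleus. IGF2 also binds INSR and IGF1R, whereas IGF2R, the mannose 6-phosphate receptor, takes up IGF2 for degradation.

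The genes were searched for 2 short sequences tied to this pathway. RefSeq windows of the GRCr8 build held the 250 bases before the start of 9 of the 10 genes, 2 windows for Igf2, with Irs2 not among them. Both strands were read for the FOXO core (TGTTTAC) and the cAMP response element (TGACGTCA). Of all 33469 windows, 3.21% held the FOXO core and 1.59% the cAMP response element. Among the 9 genes, only the Insr window held either, so no matches overlapped. It carried the FOXO core once, as read, from 100 to 94 bases before the start. That window (chr12:6128804-6129053, minus strand) is printed with the core in capitals, beside those of Igf1r (chr1:130959747-130959996, plus strand) and Irs1 (chr9:91053960-91054209, minus strand). The 3 windows are shown because these are the receptor, its closest relative and its substrate, whose sham LV levels lay below those of sham RV.
Insr: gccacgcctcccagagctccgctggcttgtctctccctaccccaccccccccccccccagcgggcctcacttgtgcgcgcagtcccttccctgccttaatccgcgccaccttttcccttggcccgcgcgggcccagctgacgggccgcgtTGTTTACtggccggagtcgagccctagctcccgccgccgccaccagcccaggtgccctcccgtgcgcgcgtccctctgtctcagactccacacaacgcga
Igf1r: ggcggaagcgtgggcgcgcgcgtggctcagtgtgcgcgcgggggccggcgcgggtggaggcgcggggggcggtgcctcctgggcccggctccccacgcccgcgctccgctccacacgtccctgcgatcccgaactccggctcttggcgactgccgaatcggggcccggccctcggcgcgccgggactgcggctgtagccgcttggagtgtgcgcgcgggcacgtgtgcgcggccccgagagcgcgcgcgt
Irs1: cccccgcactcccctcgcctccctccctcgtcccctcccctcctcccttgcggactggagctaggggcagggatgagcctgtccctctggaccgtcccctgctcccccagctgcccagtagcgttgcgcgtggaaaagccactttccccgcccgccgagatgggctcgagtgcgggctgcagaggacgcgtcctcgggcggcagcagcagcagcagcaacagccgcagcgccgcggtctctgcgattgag
All 3 windows were rich in G and C, at 71.2%, 79.6% and 70.8%, against a median of 51.2% over all windows. The windows of Igf1 (46.8%) and Igfbp5 (51.6%) lay near that median, and those of the other genes between 62.4% and 81.2%.

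The libraries held 14121713 to 16871371 reads on genes, and 17128 to 17807 genes were above 0. Heart muscle markers were abundant in every library, whose 10 genes summed to 19463 to 30922 FPKM (fragments per kilobase of gene, scaled to depth), while 4 of 5 liver and 4 of 5 fat markers averaged under 1 FPKM. Of the libraries, 2 stood apart by 4 atrial transcripts. The mean log2 value of Myl7, Myl4, Sln and Bmp10 was 6.25 in sham RV replicate 1 and 8.22 in VO RV replicate 2, against 2.53 to 3.25 in the other 10. Nppa, also on the list of 5 atrial markers, was left out of this mean. The sum of all 5 was 4559 FPKM in VO RV replicate 2. In sham RV replicate 1 it was 1065, inside the 212 to 1729 of the other 10. VO RV replicate 2 also had the lowest sum of heart muscle markers and the highest sum of fibroblast markers, 4935 FPKM against at most 3640 elsewhere. Y-linked genes, 4 of them tested, were read in 2 sham LV, 2 sham RV and 1 VO RV library and lay below 1 FPKM in the other 7, among them all 3 VO LV libraries. The labels give no sex. The share of mitochondrial reads ran from 14.4% to 26.2%, both ends within sham LV.

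Of the ligands, Igf2 was the most abundant of the 10 genes and Igf1 among the scarce ones. Igf2 (ENSRNOG00000020369, chr1:215828102-215846911 as the table lists it, its build not being given in the sources used here) encodes the fetal growth factor. It read 84.9, 122.6 and 79.6 FPKM in sham LV, 121.8, 89.6 and 104.4 in sham RV, 76.6, 54.1 and 84.8 in VO LV, and 85.6, 119.7 and 114.4 in VO RV. The 3 VO LV libraries lay below every VO RV library and overlapped sham LV. Igf1 (ENSRNOG00000004517, chr7:28412198-28486609) encodes the growth factor of postnatal life. Its level was 6.15, 3.91 and 5.36 FPKM in sham LV, 7.80, 7.25 and 4.58 in sham RV, 5.56, 6.04 and 6.70 in VO LV, and 4.85, 13.1 and 5.18 in VO RV. All 4 groups overlapped, and the single high value, 13.1, came from VO RV replicate 2. The insulin genes themselves were close to silent in the muscle: Ins1 was listed at 0 in all 12 libraries and Ins2 in 11.

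The IGF binding proteins Igfbp3 and Igfbp5 hold IGFs in the blood and in the matrix and set how much reaches the receptors. Igfbp5 (ENSRNOG00000017206, chr9:80150211-80167033) read 60.0, 47.9 and 66.1 FPKM in sham LV and 105.5, 97.7 and 88.1 in sham RV. With VO it read 66.5, 48.7 and 78.3 in the LV and 95.2, 125.3 and 93.9 in the RV. Every LV library lay below every RV library, under sham and under VO alike. Igfbp3 (ENSRNOG00000061910, chr14:87457647-87465374) had no such split. It read 31.0, 29.5 and 26.4 FPKM in sham LV, 35.1, 27.9 and 28.7 in sham RV, 27.1, 25.7 and 29.9 in VO LV, and 27.7, 53.2 and 39.6 in VO RV. Its 2 highest values were both from VO RV, the higher of them from VO RV replicate 2.

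The 3 receptors shared an order of groups, low in sham LV and higher in sham RV. Insr (ENSRNOG00000029986, chr12:1680957-1816414) encodes the insulin receptor. It read 5.42, 5.11 and 6.43 FPKM in sham LV, 12.3, 10.6 and 9.55 in sham RV, 8.55, 10.9 and 12.4 in VO LV, and 8.20, 8.82 and 6.91 in VO RV. Sham LV lay below the other 9 libraries, and VO RV lay below sham RV without overlap. Igf1r (ENSRNOG00000014187, chr1:128924966-129206516), the IGF1 receptor, lay below Insr in every library. It read 2.16, 1.91 and 2.59 FPKM in sham LV, 4.86, 3.06 and 3.02 in sham RV, 3.02, 2.97 and 4.23 in VO LV, and 2.23, 3.58 and 2.24 in VO RV. Sham LV was below sham RV and below VO LV without overlap, while VO RV overlapped both sham groups. Igf2r (ENSRNOG00000014997, chr1:48176106-48264477) was the most abundant receptor. It read 41.5, 42.7 and 45.7 FPKM in sham LV, 66.9, 56.7 and 49.8 in sham RV, 57.9, 52.0 and 70.6 in VO LV, and 50.8, 61.5 and 42.3 in VO RV. Again the 3 sham LV libraries lay below all sham RV and all VO LV libraries, and VO RV overlapped both sham groups.

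The substrates differed in how they varied. Irs2 (ENSRNOG00000023509, chr16:83824430-83848684) varied most of the 10 genes, by 6.59 times between the lowest and highest library. It read 7.27, 3.97 and 4.996 FPKM in sham LV, 16.1, 11.6 and 8.83 in sham RV, 18.8, 15.3 and 26.2 in VO LV, and 23.1, 18 and 13.2 in VO RV. Sham LV lay below the other 9 libraries, and VO RV overlapped sham RV. Irs1 (ENSRNOG00000014597, chr9:88033668-88086488) was the scarcest of the 10, at 76 to 244 reads per library. It read 1.28, 0.875 and 1.25 FPKM in sham LV, 2.76, 2.13 and 2.43 in sham RV, 1.83, 1.27 and 2.29 in VO LV, and 1.505, 2.11 and 1.38 in VO RV. Sham RV was above sham LV and above VO RV without overlap, whereas VO LV overlapped sham LV by a narrow margin.

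Grb10 (ENSRNOG00000004290, chr14:92021851-92117923) encodes an adaptor that binds the activated receptors and dampens their signal. It was the steadiest of the 10, with 1.27 times between its lowest and highest library. It read 54.1, 56.3 and 57.8 FPKM in sham LV, 59.2, 66.4 and 57.3 in sham RV, 59.7, 56.5 and 68.7 in VO LV, and 61.4, 62.5 and 59.0 in VO RV. None of the 4 pairs of groups compared was separated.

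**Figure D1:**
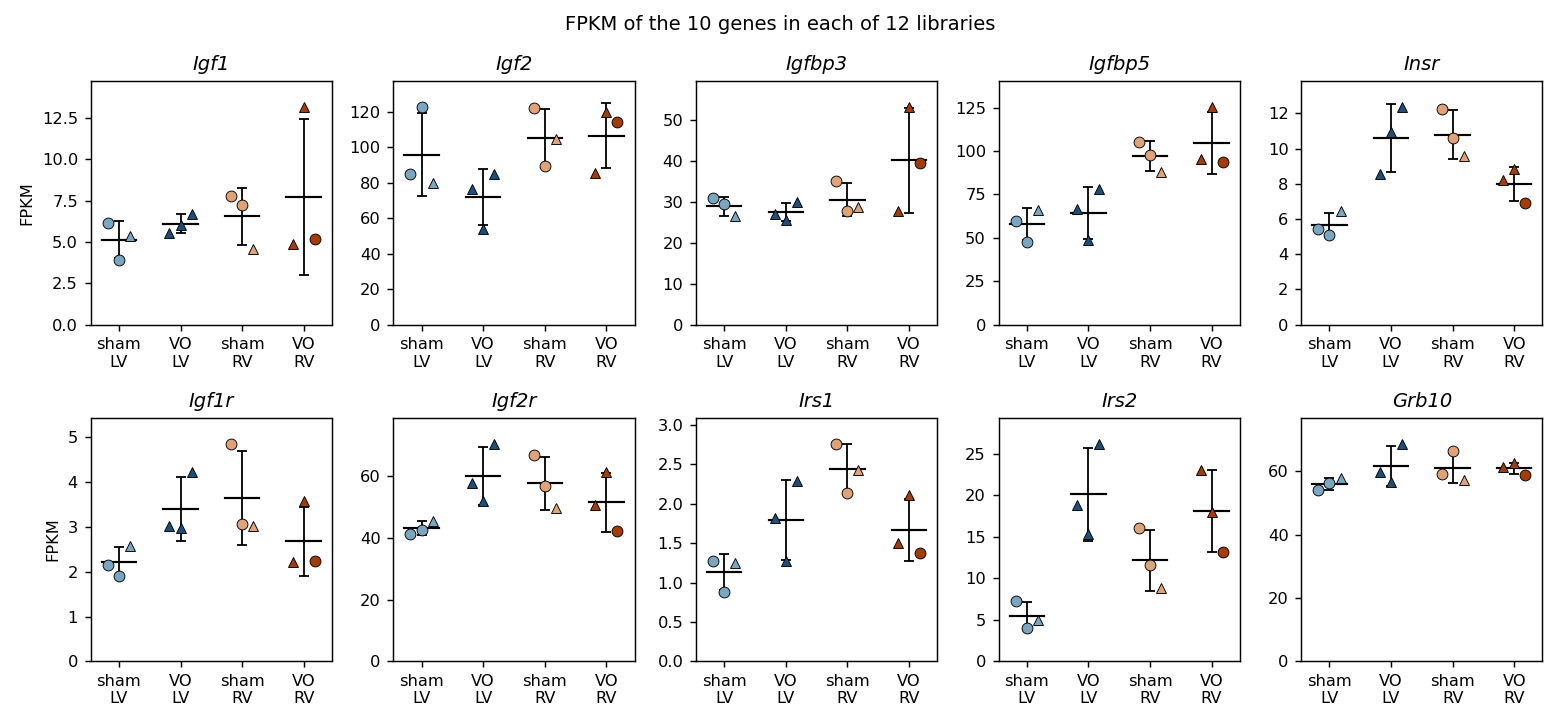
FPKM of each of the 10 genes (vertical axes, linear and starting at 0, 1 scale per gene) in sham LV, VO LV, sham RV and VO RV. Each point is 1 library, circles having Y-linked transcripts and triangles having none above 1 FPKM, and the bar with whiskers is the mean ± SD of 3. Insr and Irs2 are lowest in the 3 sham LV libraries, Igfbp5 splits by ventricle, and Grb10 stays between 54.1 and 68.7 FPKM throughout.

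Within a group, the order of levels per length was much the same in all 4. Igf2 led by mean, followed by Igfbp5, Grb10, Igf2r and Igfbp3, while Igf1, Igf1r and Irs1 took the last 3 places. The neighbours Igf2 and Igfbp5 overlapped in sham RV, VO LV and VO RV, and Grb10 and Igf2r in the same 3 groups. Insr and Irs2 changed places: in sham LV Insr averaged 5.65 ± 0.693 FPKM and Irs2 5.41 ± 1.69 (SD, n = 3), with overlap, and in the other groups Irs2 had the higher mean. In VO LV and VO RV, every Irs2 value lay above every Insr value.

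The sham libraries address how the normal neonatal ventricles differ. In sham LV, Insr, Irs1 and Igfbp5 were lower than in sham RV. Insr averaged 5.65 ± 0.693 FPKM in sham LV and 10.8 ± 1.37 in sham RV (SD, n = 3 each), and fell by 0.88 ± 0.15 (SE) on the log2(FPKM + 0.5) scale (limma, adjusted p = 0.0319). Irs1 averaged 1.13 ± 0.225 and 2.44 ± 0.314 FPKM and fell by 0.85 ± 0.20 on that scale, which understates the change of so low a gene (limma, adjusted p = 0.0459). Igfbp5 averaged 58.0 ± 9.28 and 97.1 ± 8.68 FPKM and fell by 0.75 ± 0.18 (limma, adjusted p = 0.0462). A gene was called where its Benjamini-Hochberg adjusted p over the 13910 tested genes was under 0.05 and its fold change over 1.3. These 3 of 10 stand beside 3.86% of all tested genes called, and all 3 were lower in the LV. In pieces of whole muscle, fewer cells of a type and less RNA per cell cannot be told apart. Endothelial markers were higher in sham LV, 6 of 7 by mean log2 value with 3 called, and summed to 511 to 557 FPKM against 371 to 394 in sham RV. Smooth muscle and pericyte markers were higher there in 7 of 7, with 0 called, and epicardial markers lower in 5 of 6, with a median log2 difference of -0.82. The 1 epicardial marker called, Wt1, went the other way, at means of 15.5 FPKM in sham LV and 10.4 in sham RV. Fibroblast markers were lower in sham LV in 8 of 8, with 0 called, at sums of 2594 to 2789 FPKM against 2770 to 3640. Heart muscle markers were lower in 6 of 10, with 2 called, Ryr2 at means of 22.6 and 44.6 FPKM and Atp2a2 at 551 and 959. Macrophage markers were higher in 6 of 7 and red cell markers in 4 of 4, with 0 called. Their part in the values of Insr, Irs1 and Igfbp5 was not tested.

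Irs2 had the largest difference of the 10 between the sham ventricles and just missed the threshold. It averaged 5.41 ± 1.69 FPKM in sham LV and 12.2 ± 3.68 in sham RV, a log2 difference of -1.10 ± 0.28 (limma, adjusted p = 0.0514). The differences of Igf1r, -0.59 ± 0.22, and Igf2r, -0.40 ± 0.15, had adjusted p values of 0.124 and 0.132 by limma. Without sham RV replicate 1, the library with atrial transcripts, the Igf1r difference was -0.39 ± 0.22 (limma, adjusted p = 0.375). At an unadjusted p under 0.05 with the same fold, 6 of 10 passed, beside 17.8% of all tested genes. The same 6, the 3 receptors, both substrates and Igfbp5, were also the genes whose sham LV and sham RV libraries did not overlap, beside 32.2% of all tested genes. Igf1, Igf2, Igfbp3 and Grb10 had group means within a ratio of 0.786 to 0.947.

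Several single libraries decide whether these 3 genes pass. No gene of the 10 passed without sham LV replicate 1, sham LV replicate 2, sham RV replicate 1, sham RV replicate 2 or VO LV replicate 2, which enters through the shared estimate of spread. Over all tested genes the count fell from 537 to 3, 1, 0, 4 and 5 at these 5 settings, so the loss was not particular to the 10. Only 1 passed without sham LV replicate 3, sham RV replicate 3, VO LV replicate 1 or VO RV replicate 1, where 420, 185, 173 and 524 of all tested genes did. The log2 difference of Insr stayed between -0.97 and -0.79 over these settings, and its adjusted p rose to 0.127 without sham RV replicate 1, the library with atrial transcripts. With the mean of Myl7, Myl4, Sln and Bmp10 as a covariate, Insr kept its call (limma, adjusted p = 0.0420), and 344 of all tested genes passed. Irs1 and Igfbp5 lost theirs, at limma adjusted p of 0.0578 and 0.0601 with differences of -0.77 ± 0.19 and -0.68 ± 0.17.

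Irs2 was higher in VO LV than in sham LV. Its 3 VO LV libraries averaged 20.1 ± 5.56 FPKM against 5.41 ± 1.69 in sham LV, a rise of 1.81 ± 0.28 on the log2 scale (limma, adjusted p = 0.0497). This was the only call, 1 of 10 beside 0.0935% of all tested genes. Insr averaged 10.6 ± 1.92 FPKM against 5.65 ± 0.693, a log2 difference of 0.85 ± 0.15 that missed the threshold narrowly (limma, adjusted p = 0.0514). The differences of Igf1r, 0.52 ± 0.22, Irs1, 0.48 ± 0.20, and Igf2r, 0.46 ± 0.15, had limma adjusted p values of 0.187, 0.192 and 0.117.

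The receptors and substrates all had higher means in VO LV, and the other 5 genes stood closer to sham. At an unadjusted p under 0.05 with the same fold, 5 of 10 passed, all higher with VO, beside 15.7% of all tested genes. They were the 3 receptors and both substrates. The libraries did not overlap for 4 of them, Irs1 being the exception, beside 32.4% of all tested genes. Igf2 averaged 71.8 ± 15.9 FPKM in VO LV and 95.7 ± 23.4 in sham LV, and Igf1, Igfbp3, Igfbp5 and Grb10 had ratios of means from 0.952 to 1.19. Endothelial markers had lower mean log2 values in VO LV in 7 of 7, with 0 called, and summed to 397 to 446 FPKM against 511 to 557 in sham LV. Epicardial markers were lower in 6 of 6 and heart muscle markers higher in 7 of 10, again with 0 called. Smooth muscle and pericyte markers had lower means in VO LV in 7 of 7, fibroblast markers in 7 of 8, macrophage markers in 6 of 7 and red cell markers in 4 of 4, and atrial markers higher ones in 4 of 5, with 0 called. Their part in the values of the receptors and substrates was not tested.

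The Irs2 call lies at the edge of the threshold. It was lost without any 1 of sham LV replicate 1 or 2, of sham RV replicate 1, 2 or 3, of VO LV replicate 1, 2 or 3, or of VO RV replicate 2, with adjusted p values up to 0.249 by limma, while its log2 difference stayed between 1.60 and 2.02. At those settings 0 to 13 of all tested genes passed, beside 13 with every library. Without sham LV replicate 3, VO RV replicate 1 or VO RV replicate 3, 2 of the 10 genes passed, beside 307, 174 and 554 of all tested genes. No VO LV library had Y-linked transcripts and 2 of 3 sham LV libraries did, so in the LV the effect of VO and that difference in Y-linked transcripts cannot be told apart. Against the 1 sham LV library without Y-linked transcripts, at 4.996 FPKM of Irs2 and 6.43 of Insr, the VO LV libraries ran from 15.3 to 26.2 and from 8.55 to 12.4. With the mean of the Y-linked genes as a covariate, the Irs2 difference was 1.83 ± 0.34 (limma, adjusted p = 0.274).

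In the RV, the receptors and Irs1 had lower means with VO and Irs2 a higher one, and none passed. By limma, 0 of 10 genes and 0.0% of all tested genes were called. At an unadjusted p under 0.05 with the same fold, 2 of 10 passed, beside 4.91% of all tested genes. Insr averaged 7.98 ± 0.979 FPKM in VO RV and 10.8 ± 1.37 in sham RV, a log2 difference of -0.41 ± 0.15 (limma, adjusted p = 0.557). Irs1 averaged 1.66 ± 0.395 and 2.44 ± 0.314 FPKM, a difference of -0.45 ± 0.20 (limma, adjusted p = 0.593). These 2 were also the genes without overlap between the groups, beside 12.5% of all tested genes. Irs2 averaged 18.1 ± 4.92 FPKM in VO RV and 12.2 ± 3.68 in sham RV, with overlap, and Igfbp3 averaged 40.1 ± 12.7 and 30.6 ± 3.95. Exact permutation tests of 3 against 3 libraries cannot go below p = 0.10, which Insr and Irs1 reached. Atrial markers were higher in VO RV in 5 of 5, fibroblast markers in 7 of 8, endothelial and macrophage markers in 6 of 7 each and epicardial markers in 5 of 6, and heart muscle markers were lower in 7 of 10, with 0 called. Their part in the values of Insr, Irs1 and Irs2 was not tested.

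Between the overloaded ventricles, the growth factor Igf2 and both binding proteins had lower means in the LV. By limma 0 of 10 genes were called, beside 0.00719% of all tested genes. At an unadjusted p under 0.05 with the same fold, 4 of 10 passed, beside 7.4% of all tested genes. Igfbp5 averaged 64.5 ± 14.9 FPKM in VO LV and 104.8 ± 17.8 in VO RV, a log2 difference of -0.71 ± 0.18 (limma, adjusted p = 0.25). Igf2 averaged 71.8 ± 15.9 and 106.6 ± 18.3 FPKM, a difference of -0.58 ± 0.21 (limma, adjusted p = 0.351). These 2 had no overlap between the groups, beside 16.1% of all tested genes. Igfbp3 averaged 27.6 ± 2.15 and 40.1 ± 12.7 FPKM, a difference of -0.49 ± 0.19 (limma, adjusted p = 0.378). Without VO RV replicate 2, the library with the most atrial transcripts, the Igfbp3 difference was -0.26 ± 0.15 (limma, adjusted p = 0.507). Insr stood the other way, at 10.6 ± 1.92 against 7.98 ± 0.979 FPKM and a difference of 0.38 ± 0.15 (limma, adjusted p = 0.385). Fibroblast markers ran higher in VO RV, with a sum of 2533 to 4935 FPKM against 2063 to 2543 in VO LV and 7 of 8 markers higher by mean log2 value. Epicardial markers, 6 of 6 higher in VO RV, summed to 24.9 to 56.8 FPKM against 14.8 to 24.1. Macrophage markers were higher in VO RV in 7 of 7, and heart muscle markers higher in VO LV in 10 of 10 with a median log2 difference of 0.31. Atrial markers were higher in VO RV in 4 of 5, with a median log2 difference, VO LV against VO RV, of -0.74. Their part in the values of Igf2, Igfbp3, Igfbp5 and Insr was not tested.

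The response to VO differed between the ventricles for Insr. Between VO and sham it differed by 0.85 on the log2 scale in the LV and by -0.41 in the RV, and the difference of the 2, tested within 1 model, was 1.26 ± 0.21 (limma, adjusted p = 0.0249). This was the only call, 1 of 10 beside 4.19% of all tested genes. Irs2, at 1.24 ± 0.40, Irs1, at 0.92 ± 0.29, Igf1r, at 0.89 ± 0.31, and Igf2r, at 0.63 ± 0.22, had limma adjusted p values of 0.0897, 0.0849, 0.110 and 0.111. At an unadjusted p under 0.05 with the same fold, those 4 and Insr passed, 5 of 10 beside 23.1% of all tested genes, each with the higher change in the LV. The 5 ligands, binding proteins and Grb10 had differences from -0.42 to 0.13, none of which passed.

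This difference for Insr uses all 12 libraries, so it shares them with every comparison above. Its call was lost without sham LV replicate 1 or 2, sham RV replicate 1 or 2, or VO LV replicate 2 or 3, with adjusted p values up to 0.0826 and 0 to 4 of all tested genes called, and without sham RV replicate 1 and VO RV replicate 2 together (limma, adjusted p = 0.0629). The value itself stayed between 1.15 and 1.40 when single libraries were left out. With the Y-linked mean as a covariate it was 1.23 ± 0.22 (limma, adjusted p = 0.0438). Among the 7 libraries without Y-linked transcripts, Insr read 6.43 FPKM in sham LV, 9.55 in sham RV, 8.55 to 12.4 in VO LV and 8.20 to 8.82 in VO RV.

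**Figure D2:**
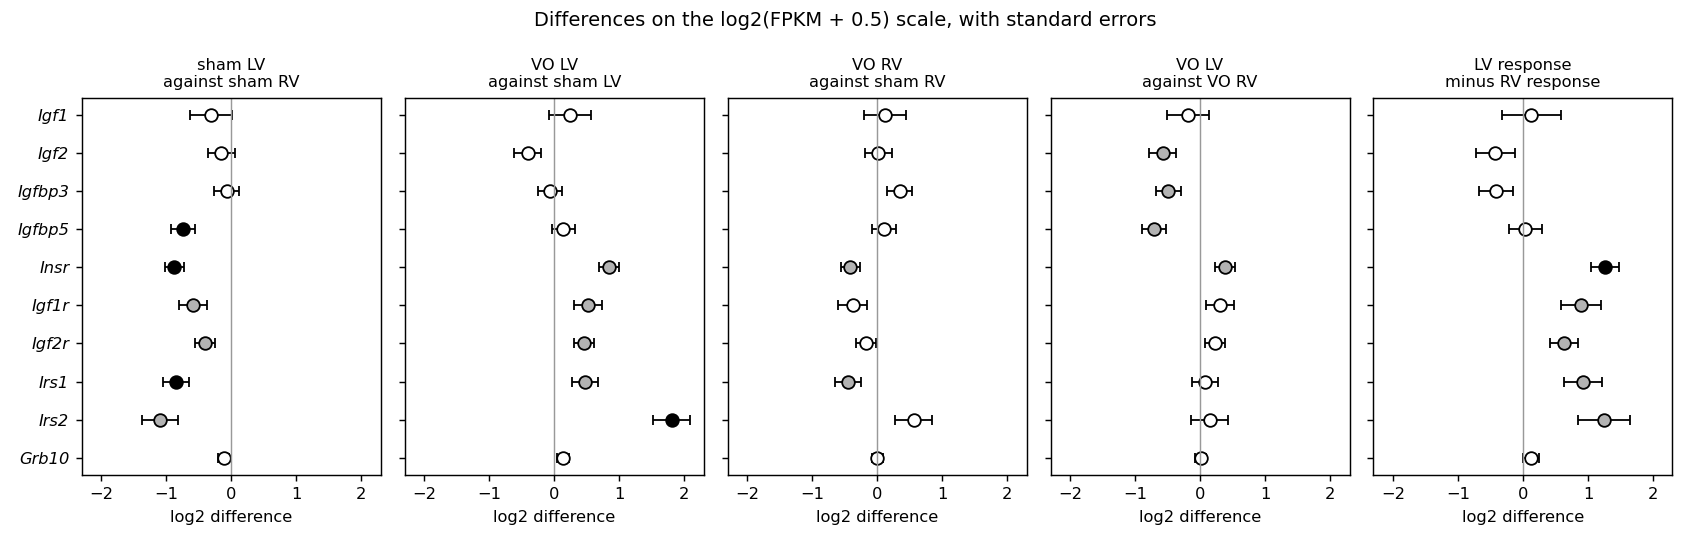
Log2 differences of the 10 genes (horizontal axes, log2(FPKM + 0.5) scale) with standard errors in 5 comparisons, from 1 model of 12 libraries. Black points passed an adjusted p under 0.05 with a fold over 1.3, grey points passed at an unadjusted p under 0.05 only, and open points passed neither. The 3 receptors and 2 substrates lie left of 0 between the sham ventricles, right of 0 for VO LV against sham LV, and right of 0 for the difference of responses.

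The ratio of the 2 substrates was higher in every VO library than in every sham library, in both ventricles. Tests of 3 against 3 libraries could not pass, so this split is a description only. None of the 10 genes and none of the other ratios looked at split so, and how often other pairs of genes do was not counted. Irs1, its denominator, rests on 76 to 244 reads per library. Irs2/Irs1, a ratio taken within each library and so free of library scaling, was 5.70, 4.54 and 3.98 in sham LV and 5.84, 5.42 and 3.64 in sham RV. With VO it was 10.3, 12.04 and 11.5 in the LV and 15.3, 8.52 and 9.62 in the RV. All 6 sham libraries lay between 3.64 and 5.84 and all 6 VO libraries between 8.52 and 15.3. In each ventricle the exact two-sided permutation p was 0.10, the smallest possible with 3 against 3 libraries, and 0.32 after adjustment over the 16 ratio tests. On the log2 scale VO and sham differed by 1.26 in the LV and by 1.15 in the RV. Between the ventricles the ratio overlapped, under sham and under VO. The split was present within libraries of either kind by Y-linked transcripts: 3.64 and 3.98 in sham against 8.52 to 15.3 in VO without them, and 4.54 to 5.84 against 9.62 with them. VO RV replicate 2, with its atrial transcripts, had the lowest VO ratio, 8.52.

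The other ratios differed less. Insr/Igf1r was 2.49 to 2.67 in sham LV and 2.83 to 3.69 in VO LV, without overlap (exact p = 0.10, adjusted 0.32), and 2.52 to 3.46 in sham RV and 2.47 to 3.68 in VO RV. Igfbp5/Igfbp3 was 1.62 to 2.50 in sham LV and 3.003 to 3.502 in sham RV, without overlap (exact p = 0.10, adjusted 0.32). Igf2/Igf1 was 13.8 to 31.4 in sham LV and 8.95 to 13.8 in VO LV, and the groups met without overlapping (exact p = 0.10, adjusted 0.32).

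**Figure D3:**
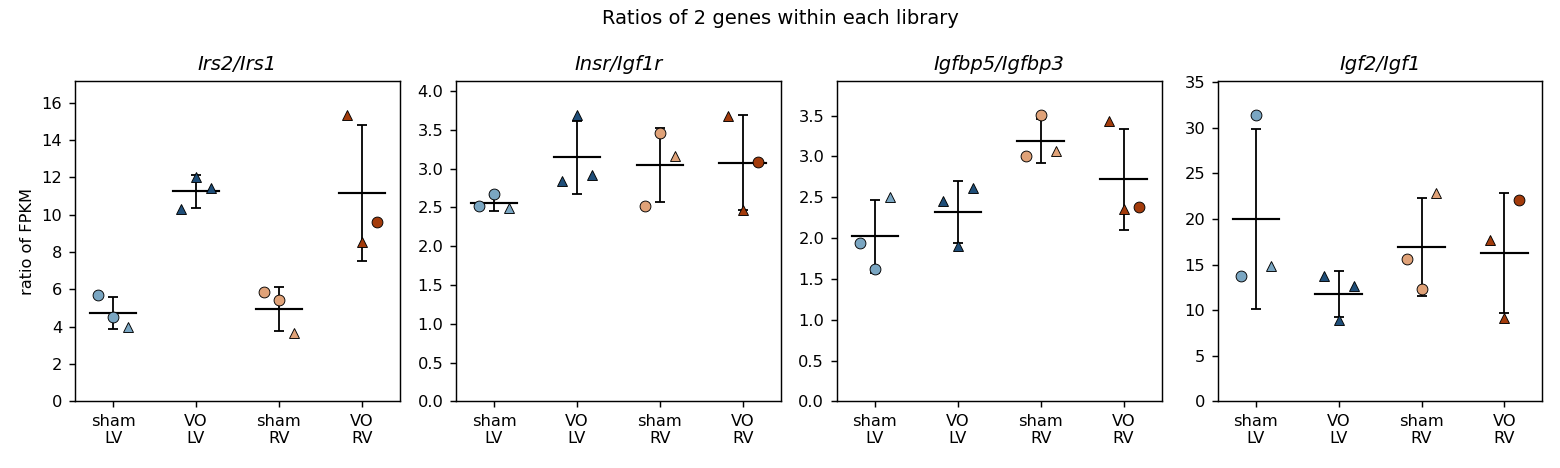
Ratios of the FPKM of 2 genes within each library (vertical axes, linear and starting at 0) for Irs2/Irs1, Insr/Igf1r, Igfbp5/Igfbp3 and Igf2/Igf1. Points are libraries, circles with and triangles without Y-linked transcripts above 1 FPKM, and bars are the mean ± SD of 3. Irs2/Irs1 is at most 5.84 in the 6 sham libraries and at least 8.52 in the 6 VO libraries.

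A wider list of 83 symbols of the pathway, 82 of them in the table, held 71 genes expressed highly enough to test. Between the sham ventricles 6 of the 71 passed, all lower in the LV, beside 3.86% of all tested genes. Those with the smallest adjusted p were Inppl1 (SHIP2, which removes a phosphate from the lipid product of PI3-kinase), Stc2 (stanniocalcin 2, an inhibitor of the protease that frees IGFs), Rptor (the raptor subunit of mTOR complex 1), Akt2 (the Akt form most tied to insulin action) and Ptpn11 (the phosphatase SHP2). Their log2 differences were -0.68 ± 0.11 for Inppl1, -1.06 ± 0.23 for Stc2, -0.40 ± 0.09 for Rptor, -0.62 ± 0.15 for Akt2 and -0.47 ± 0.12 for Ptpn11, with limma adjusted p from 0.0319 to 0.0498. The median of the 71 was -0.22 and 17 lay above 0, beside a median of 0.01 over all tested genes. Without sham LV replicate 1 or 2, sham RV replicate 1 or 2, or VO LV replicate 2, none of the 71 passed and 0 to 5 of all tested genes did, and 1 of the 71 passed without sham RV replicate 3 or VO LV replicate 1, beside 185 and 173 of all tested genes.

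With VO in the LV, 0 of the 71 passed by limma and 17 did at an unadjusted p under 0.05 with the fold, 16 of them higher, beside 15.7% of all tested genes. The 3 with the smallest p had adjusted values just over the threshold. Inppl1 averaged 20.1 ± 1.45 FPKM in sham LV and 30.2 ± 3.07 in VO LV, Akt2 41.4 ± 7.36 and 72.1 ± 5.03, and Rptor 6.01 ± 0.468 and 8.41 ± 0.740. Without sham LV replicate 3, VO RV replicate 1 or VO RV replicate 3, the count that passed was 4, 3 and 8, at settings that raised the count over all tested genes from 13 to 307, 174 and 554. With VO in the RV, 0 passed and 3 did at the unadjusted p, all lower, beside 4.91% of all tested genes. Inppl1 averaged 32.4 ± 2.08 FPKM in sham RV and 23.8 ± 2.68 in VO RV, and Mtor, the kinase of both mTOR complexes, 8.84 ± 0.740 and 6.82 ± 0.263, with a small p but a fold under 1.3. Between VO LV and VO RV, 0 passed and 9 did at the unadjusted p, beside 7.4% of all tested genes. Among those with the smallest p, Igf2bp2, which binds the Igf2 messenger, averaged 3.10 ± 0.404 FPKM in VO LV and 5.01 ± 0.531 in VO RV, and the binding protein Igfbp2 1.07 ± 0.433 and 3.42 ± 1.299.

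The responses of the ventricles differed for 9 of the 71, each with the higher change in the LV, beside 4.19% of all tested genes. Among them were Inppl1 (1.02 ± 0.15), Rptor (0.68 ± 0.13), Akt2 (1.04 ± 0.21) and Ptpn11 (0.72 ± 0.17) on the log2 scale, with limma adjusted p from 0.0249 to 0.0418. By group, 3 of 14 phosphatases and other brakes, 3 of 19 genes downstream of Akt, 2 of 19 other adaptors, 1 of 10 genes from PI3-kinase to Akt, 0 of 6 other binding proteins and their partners and 0 of 3 Igf2 messenger binding proteins passed. The median was 0.26 over the 71 and -0.04 over all tested genes. None of the 71 passed without sham LV replicate 1 or 2, sham RV replicate 1 or 2, or VO LV replicate 2 or 3, settings that left 0 to 4 calls over all tested genes, while leaving out VO LV replicate 1 left 4 calls of 240 over all tested genes and leaving out VO RV replicate 3 left 2 of 111.

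**Figure D4:**
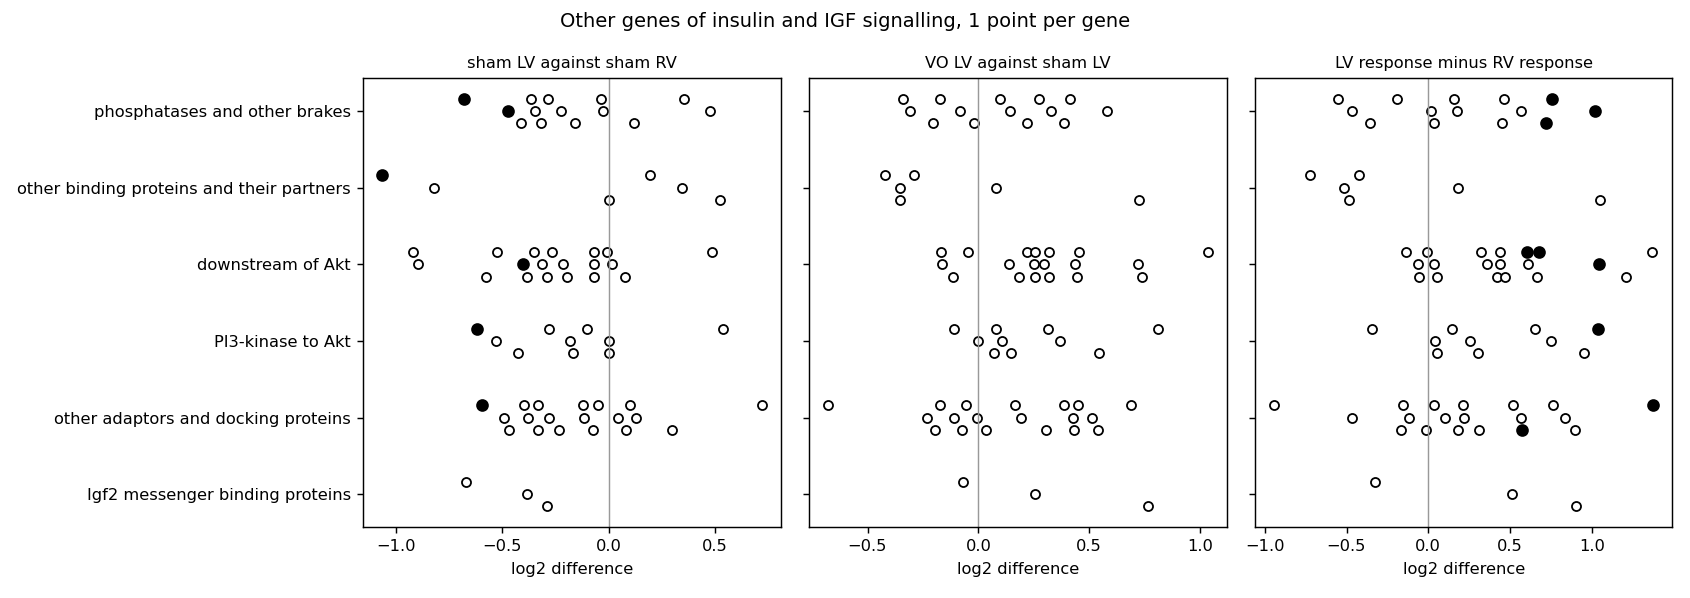
Log2 differences (horizontal axes) of 71 other genes of insulin and IGF signalling, 1 point per gene and 1 row per group of genes, in 3 comparisons. Filled points passed an adjusted p under 0.05 with a fold over 1.3, and open points did not. The 6 filled points between the sham ventricles lie left of 0 and the 9 for the difference of responses lie right of 0.

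Gene length moved with these comparisons. Most of the 10 genes are long, 8 of them between 4101 and 8787 bases as the table gives length, with Igf1 at 1925 and Igfbp3 at 2407. Over all tested genes, the median difference between sham LV and sham RV was -0.08 for the 2398 genes of 4000 to 9000 bases and 0.10 for the 6322 genes under 2000 bases. The median of the 10 was -0.50. For VO LV against sham LV the medians were 0.04, -0.08 and, for the 10, 0.35, and for the difference of responses they were 0.08, -0.14 and 0.38. With the length trend of each library removed, Insr differed by -0.76 ± 0.13 between the sham ventricles (limma, adjusted p = 0.0361) and by 1.09 ± 0.18 between the responses (limma, adjusted p = 0.0309). Irs1, at -0.76 ± 0.19, and Igfbp5, at -0.65 ± 0.16, then missed the threshold between the sham ventricles, both at 0.0515, and Irs2 missed it for VO in the LV, at 1.73 ± 0.27 (limma, adjusted p = 0.0534).

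**Figure D5:**
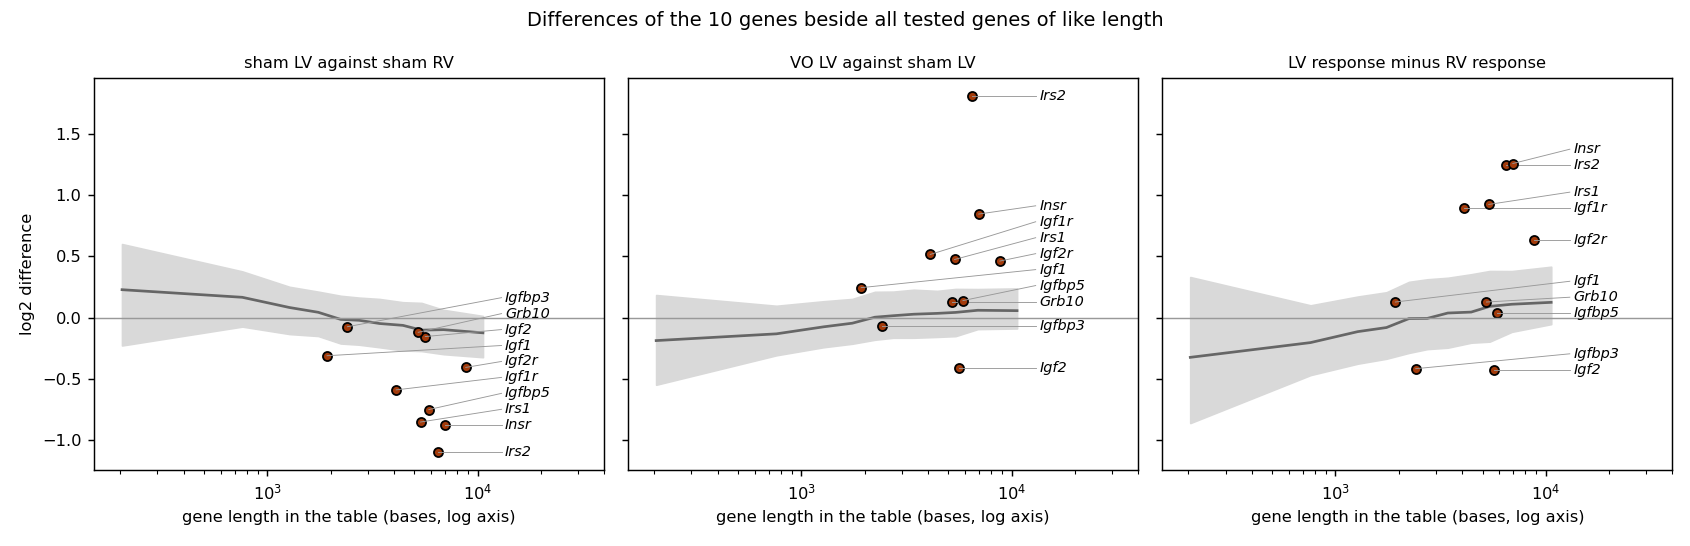
Log2 difference (vertical axis) against gene length in the table (horizontal log axis, bases) for 3 comparisons. The line is the median and the band the middle 50% of all tested genes in classes of length, and the points are the 10 genes. The receptors and substrates lie outside the band of genes of like length in all 3 panels, as about 50% of all tested genes do by definition.

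The receptors and substrates varied together over the 12 libraries, which share their depth, their length trend and the group means described above. Pearson r of log2 values was 0.86 between Insr and Igf1r, 0.86 between Insr and Igf2r, 0.92 between Igf1r and Igf2r and 0.80 between Insr and Irs1. It was lower between Irs1 and Irs2, 0.58, and near 0 between Igf2 and Igf2r, -0.0012. Among all tested genes, those most like Insr were Tob2 (0.98), Letm1 (0.98) and Slc8a1 (0.97), most like Irs2 were Rtn4rl1 (0.96), B3galt2 (0.95) and Rgma (0.93), and most like Irs1 were Wrb (0.97), Golga3 (0.95) and Lig1 (0.93). Igfbp5 came closest to Gas7 (0.97), RGD1561149 (0.95) and Klhl13 (0.94). The first for the others were Copa for Igf1 (0.96), Camkk1 for Igf2 (0.95), Fkbp10 for Igfbp3 (0.96), Nsd1 for Igf1r (0.98), Ddb1 for Igf2r (0.98) and Rabep1 for Grb10 (0.92). These values describe 12 libraries and carry no test.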

How the data were processed

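Free walls of the LV and RV were sequenced from poly-A RNA of sham and VO rats, 3 libraries per group. Reads were cleaned, aligned with HISAT2 2.0.5 and counted per gene with featureCounts 1.5.0-p3, and the authors deposited them as FPKM, whose genome build, annotation release and strand setting are not given in the sources used here. Times gene length, values below 200 reads were multiples of 1 read (100% of them, tolerance 0.02) in every library, so reads per gene were recovered, and the total implied by the FPKM was 0.967 to 1.12 times their sum. No column of values was left unmapped.

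Values were rescaled by median-ratio factors of 1.002 to 1.007 and tested as log2(FPKM + 0.5) for the 13910 genes whose mean FPKM reached 0.5. The model was limma 3.58.1 under R 4.3.3 (1 design of 4 groups, 8 residual degrees of freedom, eBayes with a trend), with Benjamini-Hochberg adjustment over all of these genes. Calls used the thresholds of the study, 0.05 for the adjusted p and 1.3 for the fold. Ratios and single genes were compared by exact two-sided permutation tests (scipy 1.17.1). Fold changes are on the log2(FPKM + 0.5) scale and understate those of low genes. The procedure was tested on simulated data.

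The 10 genes, the pathway list and the marker lists were chosen with earlier results of these data known. All 10 are named. A log2 difference is given where the unadjusted p was under 0.05. From the pathway list, up to 5 called genes with the smallest adjusted p of a comparison are named, or up to 3 with the smallest p where none was called, except that 1 gene so selected is not reported here, and likeness is Pearson r over the 12 libraries. Promoter windows are from RefSeq (GRCr8). The study writes of individuals in a group, but no label ties a library to an animal, so p values measure the spread between libraries, which may be technical in part. Alternatives tried were other scalings, pseudocounts of 1 and 0.1, other filters, a separate fit, a replicate block, robust and weighted fits, voom on the recovered reads, removal of the gene-length trend, Y-linked and atrial covariates, and each library left out in turn. The authors' count-based test was not run.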

Additional observations from a re-analysis of the deposited data

Results flagged for a closer look

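Insr was singled out because its response to VO differed between the ventricles by a test of the difference itself. The LV response minus the RV response was 1.26 ± 0.21 on the log2(FPKM + 0.5) scale (limma, adjusted p = 0.0249). The 3 VO LV libraries lay above the 3 sham LV libraries, and the 3 VO RV libraries lay below the 3 sham RV libraries. Between 1.09 and 1.40 was found over the 28 alternatives, of which 19 kept the call and 9 did not. Among the 19 are the main fit read at an adjusted p under 0.1 and at an unadjusted p under 0.05, which had to keep it. With 3 libraries per group, no test for single outlying libraries was made.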

How the results depend on the processing

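Of the 22 log2 differences given for the 10 genes, none changed direction in 633 alternative values, 533 stayed on their side of the threshold, 64 lost a call and 36 gained one. Part of this was fixed beforehand. The 633 include the main values read at an adjusted p under 0.1 and at an unadjusted p under 0.05. The 22 were chosen at that unadjusted p, so all of them pass there. Leaving out a library of a group outside a comparison also leaves its difference unchanged. The ratio tests could not pass under any alternative, since 3 against 3 libraries cannot reach the threshold. The number of the 10 genes called was less stable, and so was the number over all tested genes. Between the sham ventricles it was 3 and became 0 with all genes above 0, with the replicate block and without sham RV replicate 1 and VO RV replicate 2 together, 1 with the length trend removed, the Y-linked covariate or the atrial covariate, 6 at an unadjusted p, and 0 to 4 without 1 library. At the 3 settings with 0, in that order, 8, 3 and 7 of all tested genes were called, and at the 3 with 1, 469, 478 and 344. It was 2 with the separate fit (314 of all tested genes) and 4 with a mean FPKM of at least 1, array weights, voom or an adjusted p under 0.1 (597, 1321, 683 and 1521). For VO LV against sham LV it was 1 and became 0 with a pseudocount of 1, all genes above 0, the replicate block, robust eBayes, the length trend removed, the Y-linked covariate or both RV libraries left out, where 11, 5, 3, 11, 5, 0 and 2 of all tested genes were called. It became 2 with a pseudocount of 0.1, a mean FPKM of at least 1, array weights, voom, the atrial covariate or an adjusted p under 0.1, beside 56, 183, 704, 341, 324 and 954 of all tested genes, 5 at an unadjusted p, and 0 to 2 without 1 library. For the difference of responses it was 1 and became 0 with all genes above 0, the replicate block or both RV libraries left out, where 21, 1 and 2 of all tested genes were called, 4 with the atrial covariate (1213 of all tested genes), 3 at an adjusted p under 0.1, 5 at an unadjusted p, and 0 to 1 without 1 library. For VO in the RV and for VO LV against VO RV it was 0 under every alternative but the unadjusted p, with 2 and 4. The cause was not tested.

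Whether the numbers in the labels pair the libraries is not known. The correlation of deviations from the group means was -0.28 to 0.12 for the 18 same-numbered pairs and -0.16 to 0.27 for the 36 others. Both sets include pairs of a sham and a VO library, which cannot share a heart, so these ranges cannot decide it. Same-numbered LV and RV libraries gave 0.045, 0.038 and 0.123 in sham and 0.054, -0.051 and -0.219 in VO. Under the replicate block 0 of the 10 genes were called in each comparison.

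Over all tested genes, calls between the sham ventricles numbered 537 and ranged from 0 to 1321 over the alternatives that kept both thresholds, those for VO in the LV 13 and 0 to 704, in the RV 0 and 0 to 2, between the VO ventricles 1 and 1 to 48, and for the difference of responses 583 and 0 to 1213. Of the 71 pathway genes the same ranges were 0 to 13 around 6, 0 to 9 around 0, 0 to 0, 0 to 0, and 0 to 16 around 9. With the adjusted p under 0.1 the 5 counts over all genes were 1521, 954, 0, 3 and 1599, and at an unadjusted p under 0.05 they were 2478, 2185, 683, 1030 and 3208. Those of the pathway genes were 16, 11, 0, 0 and 18, and 22, 17, 3, 9 and 27. Irs1, Igf1r and Igf1 rest on 76 to 454 reads per library.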
